A study of Mus musculus with 8 samples.

Results

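Hedgehog signalling was followed through 6 of its genes in nuclei of the embryonic mouse cortex: the transcription factors Gli3 and Gli2, the receptor genes Ptch1 and Boc, the ligand-release gene Disp1 and the Gli inhibitor gene Sufu. They were taken by symbol from the table of 14166 genes, and all 6 were present. Single-nucleus RNA sequencing was performed on dorsal telencephalon, the tissue that forms the cerebral cortex, dissected from E15.5 C57BL/6J mouse embryos. There were 4 wildtype samples and 4 samples labelled Pantr2 knockout, written Pantr2-/- in the protocol text. Pantr2 is a long noncoding RNA gene. Neither the deleted stretch, the sex of the embryos nor the number of embryos per sample is given in the labels, and p-values measure the spread between these samples.

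Hedgehog ligands bind Ptch1, which otherwise holds the membrane protein Smo inactive. Boc, Cdon and Gas1 are coreceptors that help the ligand to bind, and Disp1 releases the lipid-bound ligand from the cells that make it. Without ligand, Sufu retains the Gli proteins and Gli3 in particular is cut to a repressor form. With ligand, Gli2 and Gli3 activate targets, among them Ptch1 itself, Gli1 and Hhip, so the Ptch1 transcript is commonly used as a readout of pathway activity. In the developing telencephalon the ligand comes mainly from ventral regions, and Gli3 is a known requirement for dorsal identity.

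The tables held 67319 nuclei, 33781 wildtype and 33538 knockout, with 20446698 to 34083796 unique molecular identifiers (UMIs, each standing for 1 captured transcript) per sample. Counts of Pantr2 were not analysed here, so the genotype labels were not checked against the targeted gene. Of 66806 barcode sequences, 510 (0.763%) occurred in more than 1 library. The authors' 7 clusters were named here from marker genes, with Gli3 left out of the naming. Cluster 4 was apical progenitor-like, with 11 markers including Pax6, Hes5, Sox9 and Vim at their highest level there. Cluster 5 was intermediate progenitor-like (Eomes, Neurog2 and 4 further markers), cluster 1 upper-layer neuron-like (Cux1 and Cux2 among its markers) and clusters 2 and 3 deep-layer neuron-like (Bcl11b and Fezf2 in cluster 2, Tbr1 and Tle4 in cluster 3). Clusters 6 and 7 had too few markers for a name and are called by number. Values are CPM, the UMIs of a gene per 1000000 UMIs, of a sample, or of 1 cluster of a sample, with n = 4 samples per group throughout. Levels of different genes are not compared with each other, because transcript length and capture differ between them.

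Gli3, the factor best known as the pathway's repressor, was found almost entirely in cluster 4. Its level there was 1585, 1779, 1564 and 1586 CPM in wildtype samples 1 to 4, against 220 ± 10.2 CPM (SD) in cluster 5 and 10.3 to 34.3 CPM on average in the other 5 clusters. Cluster 4 held 87.0% ± 1.37 of all Gli3 UMIs in wildtype and 89.4% ± 1.88 in knockout. No sample of cluster 4 overlapped any sample of cluster 5, and cluster 5 stood apart from cluster 1. Below that, each neighbour in the order of clusters 1, 7, 6, 2 and 3 overlapped the next. The clusters were made from all genes of these nuclei, Gli3 among them, so this order is a description and was not tested.

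Single nuclei had the same leading clusters for Gli3. After every nucleus was thinned at random to 1400 UMIs, 84.1% ± 1.11 of wildtype cluster 4 nuclei held at least 1 Gli3 UMI, compared with 24.5% ± 1.29 in cluster 5 and 1.30% ± 0.412 in cluster 3. Whether the low share in cluster 3, a neuron-like population, came from free RNA in the droplets or from the nuclei themselves was not tested. Before thinning, the median depth was 2908 UMIs per nucleus in cluster 4 and 3040 in cluster 3.

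Gli2, which acts mainly as an activator, had the same leading clusters with a shallower gradient. Its wildtype level was 221, 263, 259 and 280 CPM in cluster 4, 92.7 ± 4.42 CPM in cluster 5 and 15.9 ± 0.536 CPM in cluster 1. These 3 clusters stood apart from each other in both groups. Cluster 4 held 71.5% ± 2.13 of the wildtype Gli2 UMIs and cluster 5 held 17.2% ± 0.590. The ratio of Gli3 to Gli2 UMIs was 5.66 to 7.17 across the wildtype samples in cluster 4, above every wildtype sample of the other clusters. Those ranged from 1.72 in cluster 1 to 4.67 in cluster 2, with cluster 5 at 2.16 to 2.70. In knockout, cluster 4 (5.66 to 7.90) overlapped cluster 6, whose highest sample had a ratio of 6.13. In clusters 2 and 3 Gli2 was down to 3.28 ± 0.999 and 3.42 ± 0.702 CPM.

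Ptch1, the receptor and pathway target, was also highest in cluster 4 in both groups, at 130, 83.0, 93.5 and 90.4 CPM in wildtype. Unlike the Gli genes it was not next highest in cluster 5, which held the lowest wildtype mean of the 7 clusters (16.9 ± 3.43 CPM). The deep-layer-like clusters 3 and 2 followed cluster 4, with 29.8 ± 4.21 and 29.3 ± 5.02 CPM, and overlapped each other. Cluster 4 therefore held 41.2% ± 11.4 of the wildtype Ptch1 UMIs, with clusters 2 and 3 together accounting for much of the rest (14.9% and 17.8%).

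Boc, the coreceptor, reached 318 ± 11.5 CPM in wildtype cluster 4, and also had appreciable levels in several other clusters. It stood at 101 ± 9.08 CPM in cluster 5, 98.0 ± 8.73 CPM in cluster 6 and 77.6 ± 7.50 CPM in cluster 2. The 2 deep-layer-like clusters differed: cluster 3 held 9.84 ± 3.49 CPM, and its highest wildtype sample (15.0 CPM) lay under the lowest of cluster 2 (68.2 CPM). Cluster 5 and cluster 6 overlapped in both groups.

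Sufu and Disp1 were the most evenly spread of the 6. Sufu, which tethers Gli proteins in the cytoplasm, was highest in cluster 5 (142 ± 11.9 CPM), overlapped there by cluster 4 (117 ± 9.49 CPM), and lowest in cluster 3 (50.6 ± 4.34 CPM). Disp1, the ligand releaser, ranged from 20.8 ± 2.75 CPM in cluster 7 to 43.1 ± 3.21 CPM in cluster 4, which overlapped cluster 3 (40.5 ± 3.21 CPM). In knockout, Disp1 was highest in cluster 2 (51.1 ± 12.6 CPM), overlapping cluster 4 (48.7 ± 1.30 CPM). With library scaling by TMM factors across all sums, cluster 3 rather than cluster 4 was highest for wildtype Disp1, while the leading cluster of the other 5 genes was the same in both groups.

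**Figure D1:**
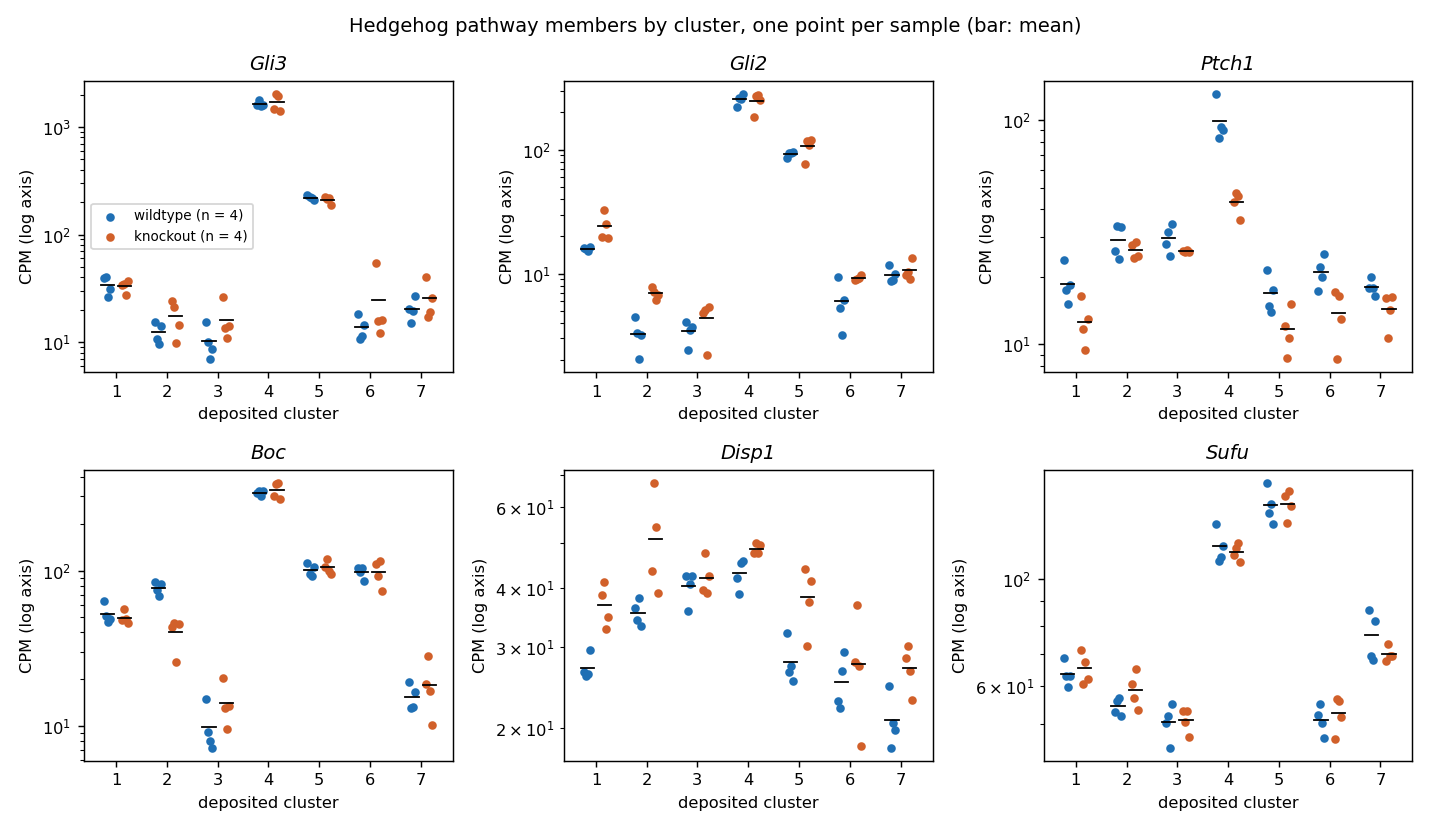
Level of each of the 6 genes (CPM, logarithmic axis) in the 7 clusters, 1 point per sample in wildtype (blue, n = 4) and knockout (orange, n = 4), with a bar at the group mean. Gli3 and Gli2 peak in cluster 4 and then cluster 5, Sufu peaks in cluster 5, and the knockout points lie below the wildtype points for Ptch1 in cluster 4 and Boc in cluster 2.

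The genes whose levels tracked each member most closely over the 56 sums of 8 samples and 7 clusters were taken from 10453 genes with a mean of at least 5 CPM. For Gli3 they were Tanc1 (Pearson r = 0.99 of log2(CPM + 1)), Creb5 (0.98) and Yap1 (0.98). Gli2 was most like Mir9-3hg (0.99), Dleu2 (0.97) and Celsr1 (0.97), and Sufu most like Rhbdd1 (0.96), Ttyh2 (0.96) and Ccdc136 (0.96). Values were lower for Ptch1, with Rgma (0.89), Mcph1 (0.88) and Prim2 (0.86), and for Boc, with Cfap44 (0.89), Pspc1 (0.89) and Magi1 (0.89). Disp1 had the least similar neighbours: Katnip (0.80), Adamts20 (0.75) and Gpc4 (0.75). Among the members themselves, r was 0.96 between Gli3 and Gli2 and 0.13 between Ptch1 and Sufu. Sums of 1 sample share its library and depth, and these coefficients describe the points without a test.

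The gene loci are given on GRCm38 from GENCODE M21. All 6 are protein-coding. Ptch1 (ENSMUSG00000021466) lies at chr13:63508328-63573598 on the minus strand, and Gli3 (ENSMUSG00000021318) on the plus strand of the same chromosome at chr13:15463235-15730026. Gli2 (ENSMUSG00000048402) is at chr1:118834132-119053619 and Disp1 (ENSMUSG00000030768) at chr1:183086266-183221522, both on the minus strand. Boc (ENSMUSG00000022687) is at chr16:44485049-44558897 on the minus strand and Sufu (ENSMUSG00000025231) at chr19:46396896-46488804 on the plus strand. GENCODE annotates other genes overlapping all of these except Sufu, and none of the overlapping genes is in the count table. Whether UMIs from them were counted to the listed gene or left out is not given in the sources used here.

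The upstream 250 bases of Ptch1 and Gli2 are shown because their transcripts changed in knockout in different clusters and in opposite directions. The sequences are from RefSeq on GRCm38.p6, 5′ to 3′ on the gene's own strand, ending at the base before the annotated start, and capitals mark GGGGCGG, the core of a GC box.
Ptch1 (chr13:63565736-63565985, minus strand): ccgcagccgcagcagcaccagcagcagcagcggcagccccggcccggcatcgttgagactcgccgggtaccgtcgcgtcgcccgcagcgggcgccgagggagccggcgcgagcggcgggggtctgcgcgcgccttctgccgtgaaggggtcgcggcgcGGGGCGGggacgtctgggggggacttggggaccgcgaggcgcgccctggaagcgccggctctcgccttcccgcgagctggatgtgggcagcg
Gli2 (chr1:119053620-119053869, minus strand): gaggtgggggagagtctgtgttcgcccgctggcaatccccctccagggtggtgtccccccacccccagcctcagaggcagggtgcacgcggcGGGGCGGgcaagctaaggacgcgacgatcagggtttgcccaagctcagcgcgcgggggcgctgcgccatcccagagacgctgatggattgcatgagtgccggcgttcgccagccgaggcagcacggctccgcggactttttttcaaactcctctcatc

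Both windows were rich in G and C, at 78.4% for Ptch1 and 67.2% for Gli2. The Gli-binding consensus GACCACCCA, searched on both strands, was in none of the 6 upstream windows that matched 5 of the genes (Disp1 has 2), and in 0.225% of all 32851 RefSeq windows of that length. The looser form GACCNCCCA, which includes the former, was likewise in none of the 6, against 0.868% of all windows. GGGGCGG was in 4 of the 6, those of Gli3, Gli2, Ptch1 and Sufu, against 21.0% of all windows. The Ptch1 window lies inside an intron of longer transcripts that GENCODE annotates. A match or its absence describes these letters only.

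Over all nuclei of a sample, 2 of the 6 genes differed between the genotypes by edgeR's quasi-likelihood test, at a Benjamini-Hochberg adjusted p under 0.05 over the genes tested, and 5.26% of all genes tested did so. Ptch1 was 45.1, 32.7, 28.0 and 34.2 CPM in wildtype and 26.8, 22.5, 23.0 and 22.2 CPM in knockout, so each knockout sample lay below every wildtype sample. It fell by 0.55 ± 0.12 on the log2 scale (SE, adjusted p = 0.0248, edgeR). Disp1 rose from 32.9 ± 2.0 to 41.2 ± 3.20 CPM (log2 fold change 0.34 ± 0.07, adjusted p = 0.0197), again without overlap. Leaving out 1 sample ended the Ptch1 call for wildtype 4, knockout 2 or knockout 3 (adjusted p = 0.0658, 0.0873 and 0.0885) and the Disp1 call for wildtype 2, wildtype 4, knockout 2 or knockout 3 (0.0518, 0.0529, 0.0592 and 0.0646).

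Gli3 and Gli2 did not pass the test over all nuclei. Gli3 had 361, 288, 193 and 246 CPM in wildtype and 460, 451, 348 and 241 CPM in knockout, a log2 fold change of 0.48 ± 0.21 (adjusted p = 0.242), or 0.47 with the replicate number as a block (adjusted p = 0.0490). Gli2 had a log2 fold change of 0.40 ± 0.12 (adjusted p = 0.0992, and 0.0334 by DESeq2 or 0.0484 by edgeR without knockout 4). A total over all nuclei cannot tell more nuclei of a type from more RNA per nucleus. The share of nuclei in cluster 4, which holds most UMIs of both genes, was 20.2, 13.7, 9.69 and 12.9% in wildtype and 25.5, 19.6, 15.2 and 13.1% in knockout (exact two-sided permutation p = 0.286, adjusted p = 0.933 over the 7 clusters). Within cluster 4 neither gene passed the test: Gli3 averaged 1629 ± 101 and 1710 ± 318 CPM (log2 fold change 0.10, 95% interval -0.12 to 0.31), and Gli2 256 ± 24.9 and 246 ± 42.8 CPM (-0.03, -0.27 to 0.21). Sufu (0.10 ± 0.07, adjusted p = 0.465) and Boc (0.15 ± 0.15, adjusted p = 0.633) did not pass over all nuclei either.

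**Figure D2:**
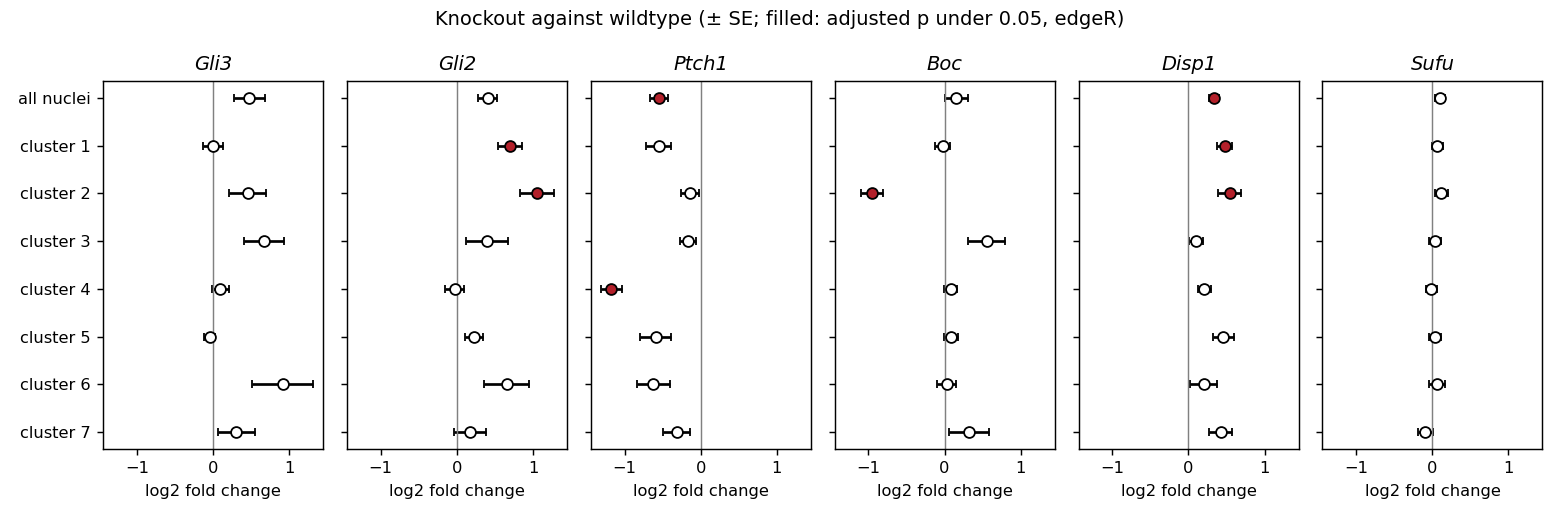
Log2 fold change of knockout against wildtype (horizontal axis, ± SE, edgeR, 4 against 4 samples) for the 6 genes over all nuclei and in each cluster, with filled points where the adjusted p was under 0.05. Ptch1 is lower in cluster 4, Boc lower in cluster 2, Gli2 and Disp1 higher in clusters 1 and 2, and Sufu lies close to 0 in every row.

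In the apical progenitor-like cluster 4, Ptch1 fell to less than the lowest wildtype value in every knockout sample. The values were 130, 83.0, 93.5 and 90.4 CPM in wildtype and 43.1, 47.5, 46.0 and 36.0 CPM in knockout, from 1484 and 867 UMIs. The log2 fold change was -1.17 ± 0.14 (0.444-fold, adjusted p = 0.000475, edgeR). The call held without any single sample, with log2 fold changes of -1.25 to -1.01. The share of cluster 4 nuclei with a Ptch1 UMI after thinning was 10.9% ± 1.92 in wildtype and 5.47% ± 0.512 in knockout, again without overlap (exact permutation p = 0.0286, the smallest that 4 against 4 samples allow, adjusted p = 0.171 over 42 tests). Ptch1 was the 1 gene called of the 6 in this cluster, where 4.29% of all genes tested were called.

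Some markers of other cell types and of apical progenitors also differed between the genotypes in cluster 4. The summed level of the 9 ventral progenitor or interneuron markers in the table was 337 to 400 CPM in the cluster 4 of wildtype samples, 363 CPM in knockout 1 and 108 to 132 CPM in the other knockout samples, and none of the 8 tested was called. Knockout 1, with a ventral sum inside the wildtype range, had a Ptch1 level of 43.1 CPM, inside the range of the other knockout samples. In the same sample the ventral gene Nkx2-1 had 0 UMIs, and Olig2 (1.02 CPM) and Olig1 (0.853 CPM) lay below every wildtype sample. The ventral gene Gsx2, at 0.512 CPM there, lay below wildtype 1, 2 and 4 and above wildtype 3 (0.376 CPM). Of 5 oligodendrocyte precursor markers, 2 were tested and both fell (Olig1 and Olig2), with sums of 12.7 to 13.9 CPM in wildtype and 1.98 to 4.26 CPM in knockout. The sum of 13 apical progenitor markers was 5208 to 5812 CPM in wildtype and 4081 to 4680 CPM in knockout, with Fabp7, Slc1a3 and Ptprz1 called lower. Gli3 is 1 of the 13, with 1564 to 1779 CPM in wildtype and 1413 to 2013 CPM in knockout. The sums therefore do not describe the other markers alone. Of these 3 lists, Pdgfra had no UMI in the cluster 4 of knockout 3 and 4, Olig1 none in knockout 4 and Sox10 none in wildtype 1, and every other marker had at least 1 UMI in each sample. Of the 2 pericyte markers tested, Pdgfrb fell (log2 fold change -1.57, adjusted p = 0.00156), with sums of 4 pericyte markers of 26.7 to 28.2 CPM in wildtype and 9.04 to 14 CPM in knockout. Of the genes on the upper-layer and deep-layer neuron lists, Fezf2 (0.47), Foxp2 (0.36) and Lhx2 (0.40) rose and Pou3f2 fell (-0.47). Which cells of cluster 4 held these 4 transcripts was not tested. The part of the genes of the pericyte and neuron lists in the Ptch1 result was not tested either.

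Ptch1 was therefore measured again in cluster 4 without the nuclei that held a UMI of a ventral or oligodendrocyte precursor marker, an alternative chosen after the data were seen. This removed 29.2 to 37.6% of the cluster 4 nuclei of wildtype samples and 13.6 to 23.3% of those of knockout samples. The remaining nuclei had 106, 74.6, 76.1 and 80.4 CPM of Ptch1 in wildtype and 40.4, 45.2, 46.8 and 35.9 CPM in knockout. The groups again did not overlap, and the log2 fold change was -0.98 ± 0.12 (adjusted p = 0.000696), where 3.21% of genes tested were called. A nucleus of these types with no captured UMI of a marker stayed in, so the refit cannot separate the part of such nuclei. That part, and the part of the change in apical progenitor markers, was not tested.

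Ptch1 was lower in knockout in each of 3 ranges of the authors' cell cycle angle, which orders nuclei along the division cycle. In the G1/G0 range the wildtype samples had 183, 94.0, 115 and 80.8 CPM and the knockout samples 44.0, 31.0, 37.7 and 21.7 CPM, a log2 fold change of -1.84 ± 0.28 (adjusted p = 0.000752). In the S range it was -1.02 ± 0.12 (adjusted p = 0.000386) and in the G2/M range -1.11 ± 0.15 (adjusted p = 0.00063). Groups did not overlap in any range. Whether the size of the change differed between ranges was not tested. The genes called were 3.03% of those tested in G1/G0, 2.81% in S and 2.93% in G2/M, and Ptch1 was called in each while none of the other 5 members was in any.

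The members also differed from each other along the cycle within cluster 4, compared within each of the 8 samples of both genotypes. Gli3 was higher in S than in G1/G0 by 0.34 ± 0.11 (SD) on the log2 scale of CPM and higher in G2/M by 0.51 ± 0.14, in 8 of 8 samples each. Gli2 and Boc were higher in G2/M than in G1/G0 by 0.35 ± 0.13 and 0.36 ± 0.19, also in 8 of 8 samples. Each of these 4 had an exact sign-flip p of 0.00781, the smallest that 8 samples allow, and an adjusted p of 0.0234 over 12 tests. Disp1, Sufu and Ptch1 did not pass in either range, nor did Gli2 and Boc in S (adjusted p = 0.169 to 0.891). Wildtype Ptch1 went from 118 ± 45.5 CPM in G1/G0 to 85.7 ± 11.8 in S and 110 ± 23.6 in G2/M, with wildtype 1 the highest sample in each range. The authors computed the angle from the same nuclei, and whether it used these genes is not given in the sources used here.

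**Figure D3:**
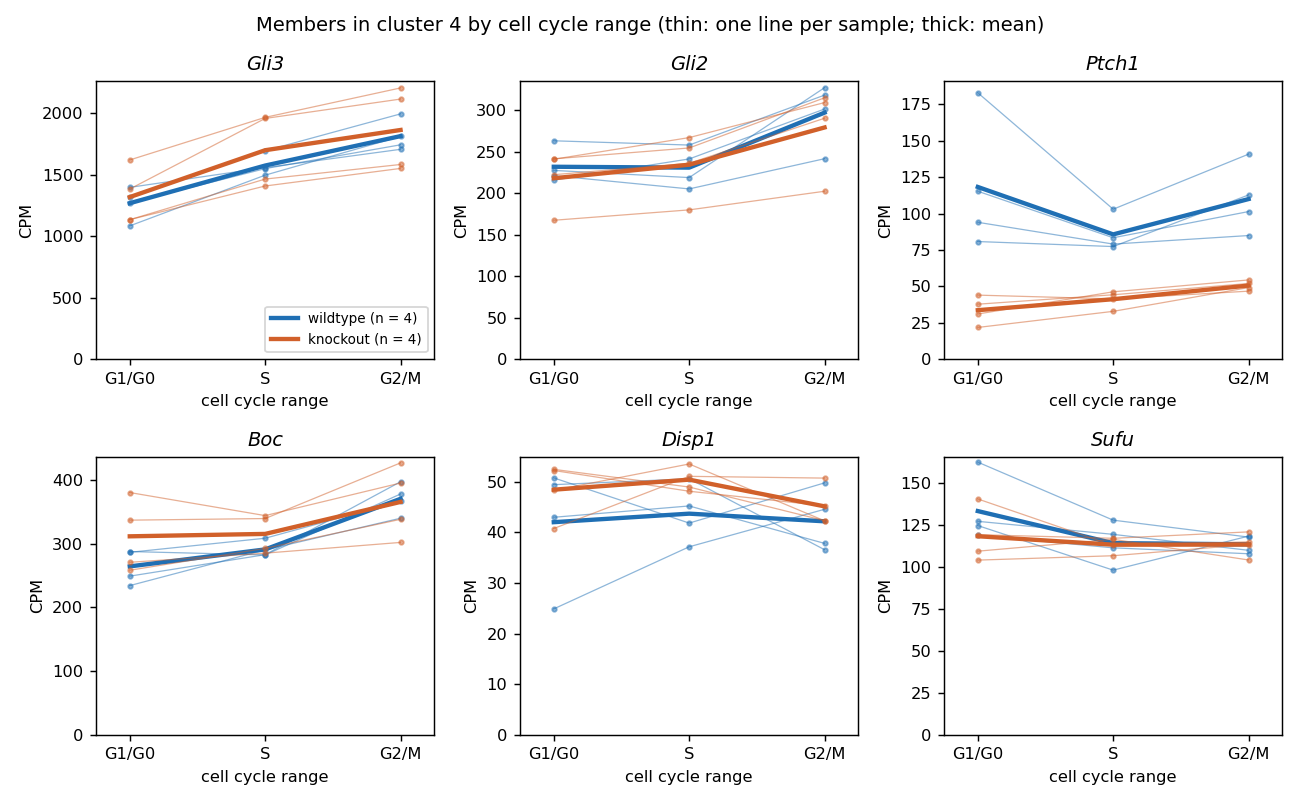
Level of each gene (CPM, axis from 0) in cluster 4 nuclei of the G1/G0, S and G2/M ranges, with thin lines for the 8 samples and thick lines for the means of wildtype (blue) and knockout (orange). Gli3 climbs from 1269 to 1815 CPM on average between G1/G0 and G2/M in wildtype, and the Ptch1 lines of the 2 genotypes do not cross in any range.

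Elsewhere Ptch1 tended to be lower without passing the test. In cluster 1 it was 18.7 ± 3.60 CPM in wildtype and 12.6 ± 2.89 CPM in knockout (log2 fold change -0.55 ± 0.16, adjusted p = 0.0767, and 0.0197 with the replicate block or 0.0386 without knockout 1). In cluster 5 the values were 16.9 ± 3.43 and 11.7 ± 2.71 CPM (adjusted p = 0.249), in cluster 6 21.1 ± 3.38 and 13.8 ± 3.91 CPM (0.331) and in cluster 7 18.0 ± 1.44 and 14.3 ± 2.62 CPM (0.628). The deep-layer-like clusters were the least different, with log2 fold changes of -0.14 (95% interval -0.38 to 0.10) in cluster 2 and -0.17 (-0.38 to 0.04) in cluster 3.

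The difference of these changes from that in cluster 4 was tested by an interaction of cluster and genotype. It was 1 edgeR fit over the 56 sums, with a term for each sample. Its p-values, here and below, thus draw on more values than the 8 samples that carry the genotype. The Ptch1 change was weaker than in cluster 4 by 1.02 ± 0.17 on the log2 scale in cluster 2 (adjusted p = 3.36e-05, edgeR) and by 0.97 ± 0.17 in cluster 3 (adjusted p = 0.000199), among 6.65% and 2.78% of genes called in these contrasts. For clusters 1, 5, 6 and 7 the difference did not pass (adjusted p = 0.0976, 0.412, 0.427 and 0.0799, the last 0.0381 without knockout 2), among 2.44%, 0.534%, 1.15% and 1.62% of genes called. An exact permutation over the 8 samples gave p = 0.0286 for clusters 2 and 3, adjusted p = 0.147 over 36 tests.

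Further receptors and membrane regulators, a ciliary gene and targets of the pathway changed in cluster 4 as well. The wider list held 66 further Hedgehog genes in 5 roles. In cluster 4, 53 of them were tested, 1 rose and 5 fell, beside 4.29% called of all genes tested, with a median log2 fold change of -0.07 against 0.0057 for all genes tested. Hhip, which binds the ligand and is itself a target, fell from 7.97 ± 1.46 to 3.47 ± 1.30 CPM (log2 fold change -1.14 ± 0.25, adjusted p = 0.0226). Lrp2, an endocytic receptor that takes up the ligand, was 14.1, 9.22, 8.64 and 11.7 CPM in wildtype and 3.58, 2.45, 3.14 and 4.96 CPM in knockout (-1.69 ± 0.24, adjusted p = 0.00191). Both genes had few UMIs, 119 and 71 for Hhip and 164 and 65 for Lrp2, and neither overlapped between the groups. Cdon, a coreceptor, went the other way, from 666 ± 30.1 to 807 ± 75.2 CPM (0.30 ± 0.08, adjusted p = 0.0426).

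Intu, needed to build primary cilia, fell from 73.4 ± 7.36 to 51.0 ± 4.95 CPM (-0.50 ± 0.10, adjusted p = 0.0114) and was the 1 gene called of 18 ciliary genes tested. Among the 5 targets tested, Bcl2, a survival gene, fell from 358 ± 26.5 to 273 ± 17.6 CPM (-0.36 ± 0.07, adjusted p = 0.0128), and Olig2, a ventral and oligodendrocyte lineage factor, from 4.40 ± 1.39 to 1.09 ± 0.284 CPM (-2.09 ± 0.33, adjusted p = 0.00339). Olig2 rested on 67 UMIs in wildtype and 20 in knockout. Without the nuclei holding a ventral or oligodendrocyte precursor marker, which include every nucleus with Olig2, Lrp2 (-1.68, adjusted p = 0.00715) and Bcl2 (-0.36, adjusted p = 0.0266) were still called. Hhip (-1.13, adjusted p = 0.0591), Intu (-0.45, 0.0515) and Cdon (0.22, 0.178) were then not.

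The Cdon call also ended with low doublet scores (adjusted p = 0.0621) and without any 1 of wildtype 1, 2, 3 or 4 or knockout 2, 3 or 4 (highest adjusted p = 0.146), and the Hhip call without wildtype 1, wildtype 2 or knockout 2 (highest adjusted p = 0.0996). None of the 12 cytoplasmic Gli regulators tested was called in cluster 4 by edgeR (1 had an unadjusted p under 0.05), nor any of the 4 ligand and release genes (0). Shh, the main ligand of the brain, had 3, 0, 1 and 0 UMIs in the wildtype samples of cluster 4 and 0 in the knockout samples. The ventral target Nkx2-1 had 27, 2, 3 and 4 UMIs in wildtype and 0 in every knockout sample. Gli1, the most direct transcriptional readout, and 7 further list genes were not analysed here.

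**Figure D4:**
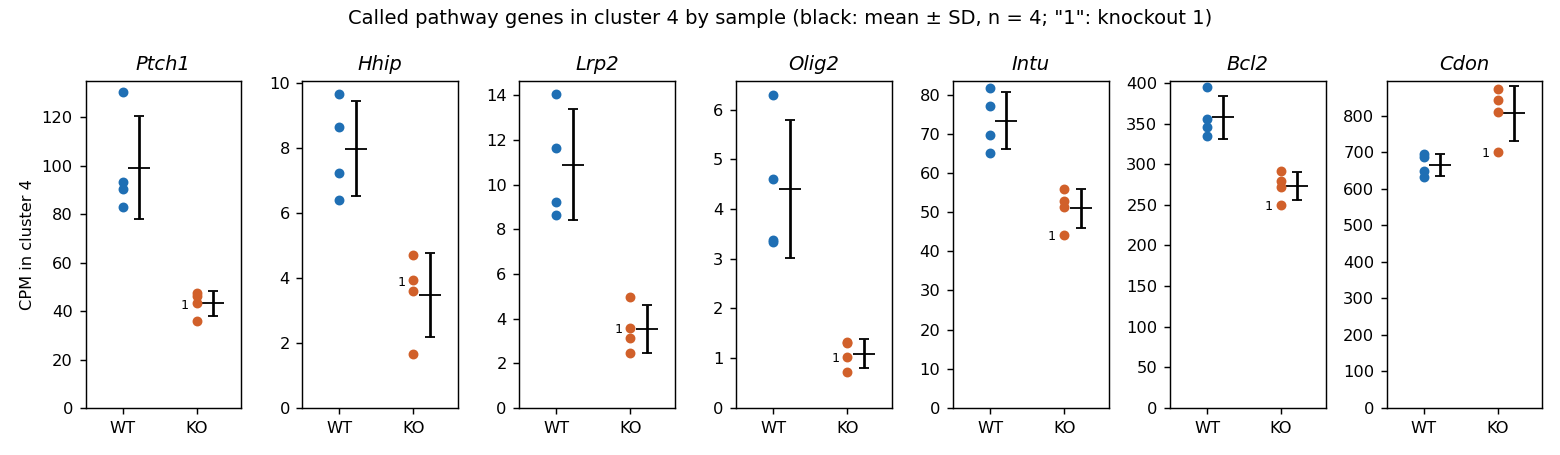
Level in cluster 4 (CPM, axes from 0) of Ptch1 and of the 6 further Hedgehog genes called there, 1 point per sample with the mean ± SD (n = 4) in black, and knockout 1 marked with 1. Ptch1, Hhip, Lrp2, Olig2, Intu and Bcl2 lie lower in every knockout sample than in every wildtype sample, and Cdon lies higher.

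By cell cycle range, 35 to 48 of the wider list were tested. None was called in G1/G0 by edgeR or DESeq2, where edgeR gave 3 an unadjusted p under 0.05. In S, Cdon rose (0.32 ± 0.08, adjusted p = 0.0435) and Lrp2 (-1.51 ± 0.29, 0.0127), Intu (-0.47 ± 0.11, 0.0435) and Bcl2 (-0.31 ± 0.07, 0.0276) fell, beside 2.81% called of all genes tested. The replicate block kept the Lrp2 call (0.0152) and ended those of Cdon, Intu and Bcl2 (0.0667, 0.120 and 0.0728). Without wildtype 1 or knockout 2 the Lrp2 call ended too (0.0687 and 0.0540). In S, the Cdon call also ended with low doublet scores (0.0612) and without any 1 sample other than knockout 1 (highest 0.159), and the Intu call with DESeq2 (0.0585), with no filter on low counts (0.0542) and without any 1 sample other than wildtype 2 (highest 0.165). The Bcl2 call in S ended with no filter (0.0506) and without any 1 sample other than knockout 3 or 4 (highest 0.0965). In G2/M, Intu (-0.49 ± 0.12, 0.0369), Bcl2 (-0.43 ± 0.08, 0.00714) and Tulp3, a ciliary trafficking gene that restrains the pathway (-0.55 ± 0.12, 0.0222), fell, beside 2.93% called of all genes tested. The Intu call there was lost with the block (0.0575), with DESeq2 (0.121), with no filter (0.0541), with sex as a covariate (0.0509) and without any 1 sample other than knockout 2 (highest 0.101). The Tulp3 call was lost without wildtype 2, 3 or 4 or knockout 2 or 3 (highest 0.0891), and the Bcl2 call in G2/M held under each alternative run.

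In the deep-layer-like cluster 2, Boc was the member that fell. Boc, whose protein also acts in axon guidance, was 84.9, 75.1, 68.2 and 82.3 CPM in wildtype and 43.4, 46.1, 25.9 and 45.5 CPM in knockout, from 1384 and 693 UMIs. Every knockout sample lay under the lowest wildtype sample. The log2 fold change was -0.95 ± 0.15 (0.518-fold, adjusted p = 0.00101, edgeR), and -1.04 to -0.78 with each sample left out in turn. The thinned share of nuclei with a Boc UMI was 9.25% ± 1.28 in wildtype and 5.08% ± 1.41 in knockout (exact permutation p = 0.0286, adjusted p = 0.171).

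Boc did not pass the test in any other cluster, with cluster 4 at 318 ± 11.5 and 330 ± 41.0 CPM. The change in cluster 2 was lower than that in cluster 4 by 1.03 ± 0.16 on the log2 scale (adjusted p = 6.49e-06, edgeR, and exact permutation p = 0.0286, adjusted p = 0.147). In the neighbouring cluster 1 Boc was 52.7 ± 7.66 and 49.7 ± 4.45 CPM (log2 fold change -0.02, 95% interval -0.22 to 0.17). In cluster 3 it was 9.84 ± 3.49 and 14.1 ± 4.54 CPM (0.55 ± 0.24, adjusted p = 0.289).

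Gli2 and Disp1 were higher in knockout in both of the clusters 1 and 2. In cluster 1, Gli2 was 16.1, 15.9, 15.2 and 16.4 CPM in wildtype and 19.8, 32.4, 25.3 and 19.4 CPM in knockout (log2 fold change 0.69 ± 0.16, adjusted p = 0.0210, edgeR). Knockout 2 was the highest, and the groups did not overlap. The call ended without wildtype 2, 3 or 4 or knockout 2 or 3, with adjusted p of 0.0546, 0.0526, 0.0566, 0.0910 and 0.0713. In cluster 2, Gli2 rose from 3.28 ± 0.999 to 6.93 ± 0.686 CPM (1.06 ± 0.23, adjusted p = 0.00901), from 59 UMIs in wildtype and 119 in knockout. The thinned share of nuclei with a Gli2 UMI there was 0.350 to 0.719% in wildtype and 0.581 to 1.27% in knockout, beside 0.242 to 0.647% and 0.406 to 0.795% in cluster 3. The cluster 2 level is thus close to the lowest found in any cluster, where the part of free RNA was not tested, while Gli2 over all nuclei was 51.1 ± 8.58 and 66.8 ± 10.5 CPM.

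The Gli2 change differed from that in cluster 4 in both clusters, by 0.70 ± 0.15 in cluster 1 (adjusted p = 0.0043, edgeR, but 0.106 without knockout 2) and by 1.05 ± 0.26 in cluster 2 (adjusted p = 0.00692). Exact permutation gave p = 0.0286 for each, adjusted p = 0.147. Disp1 in cluster 1 was 26.4, 25.9, 26.1 and 29.5 CPM in wildtype and 38.7, 41.3, 32.7 and 34.7 CPM in knockout (0.48 ± 0.10, adjusted p = 0.0105, and 0.0571 without knockout 2). In cluster 2 it was 36.4, 34.2, 38.1 and 33.2 CPM and 43.7, 67.5, 54.2 and 39.2 CPM (0.55 ± 0.15, adjusted p = 0.0372). That call ended without wildtype 1, 2 or 4 or knockout 2 or 3 (adjusted p = 0.0778, 0.0914, 0.0991, 0.108 and 0.110). No Disp1 sample overlapped between the groups in either cluster. The Disp1 changes were not shown to differ from that in cluster 4 (adjusted p = 0.494 and 0.162, the latter 0.0277 without knockout 4).

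Members called numbered 2 of 6 in cluster 1, where 4.84% of genes tested were called, and 3 of 6 in cluster 2, where 9.11% were. The 6 genes and the wider list were chosen with earlier results of these data known. Counts of them called, here and in the other sets of nuclei, are therefore no test against the share of all genes. In cluster 3 none of the 6 was called by edgeR (3.36% of genes tested) or DESeq2, although Gli3 and Boc had unadjusted p of 0.0236 and 0.0376. The Gli3 levels were 10.3 ± 3.66 and 16.2 ± 6.79 CPM, with knockout 1 highest at 26.2 CPM (log2 fold change 0.67 ± 0.26, adjusted p = 0.234, and 0.0142 with the replicate block). In clusters 5, 6 and 7 none was called by either tool (1.77%, 0.779% and 1.03% of genes tested by edgeR). Gli2 in cluster 5 was called by edgeR without knockout 1 (adjusted p = 0.0487). The members with an unadjusted p under 0.05 were Ptch1 and Disp1 in cluster 5, Gli3, Gli2 and Ptch1 in cluster 6 and Disp1 in cluster 7. Over the 7 clusters, 6 of the 42 combinations of member and cluster were called, and 8 with the replicate block, which added Ptch1 in cluster 1 and Gli3 in cluster 3. The block also raised the genes called in cluster 3 from 400 to 652. The shares of all genes given above are without the block and are no measure for the count of 8.

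Markers that define layers also differed between the genotypes in clusters 1 and 2. The sum of 8 upper-layer neuron markers in cluster 2 was 3836 to 5758 CPM in wildtype and 1721 to 2457 CPM in knockout, with 7 of the 8 called lower. The sum of 10 deep-layer markers was 8671 to 10633 CPM in wildtype and 12328 to 14400 CPM in knockout, with 5 of 10 called higher. In cluster 1 the upper-layer sum was 6740 to 7779 and 3997 to 5785 CPM (6 of 8 lower) and the deep-layer sum 2562 to 3063 and 3883 to 5271 CPM (5 of 10 higher). Markers of other cell types moved too. Of the ventral or interneuron markers, Dlx2, Dlx5, Dlx6os1 and Gad2 fell in cluster 1 (log2 fold changes of -1.82 to -1.32) and Dlx2, Dlx5 and Lhx6 in cluster 2 (-1.35 to -0.97), with sums of 85.1 to 132 CPM in wildtype and 46.4 to 71.9 CPM in knockout in cluster 1, and 78.7 to 108 and 45.0 to 104 CPM in cluster 2. Of the 13 apical progenitor markers, Gli3 among them, Nes rose in both clusters (0.50 and 0.62). The sums of the 13 were 1730 to 2045 and 1456 to 1862 CPM in cluster 1 and 1878 to 2262 and 2015 to 2230 CPM in cluster 2. The intermediate progenitor marker Mfap4 rose in cluster 1 (0.79), the subplate marker Nxph4 rose in both clusters (0.58 and 1.18), and in cluster 2 the Cajal-Retzius cell markers Reln (0.67) and Nhlh2 (0.99) rose and Rspo2, of the choroid plexus or cortical hem list, fell. The part of these shifts in the Boc, Gli2 and Disp1 results was not tested.

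With clusters 1 and 2 combined, as in the authors' coarser grouping and chosen after the data were seen, the same 3 genes were called, where 7.22% of genes tested were. Boc was 77.2, 61.7, 57.2 and 63.4 CPM in wildtype and 45.3, 52.1, 38.1 and 45.8 CPM in knockout (log2 fold change -0.49 ± 0.11, adjusted p = 0.0150). Gli2 changed by 0.79 ± 0.17 (adjusted p = 0.0156) and Disp1 by 0.49 ± 0.10 (adjusted p = 0.0105). The groups did not overlap for any of the 3.

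**Figure D5:**
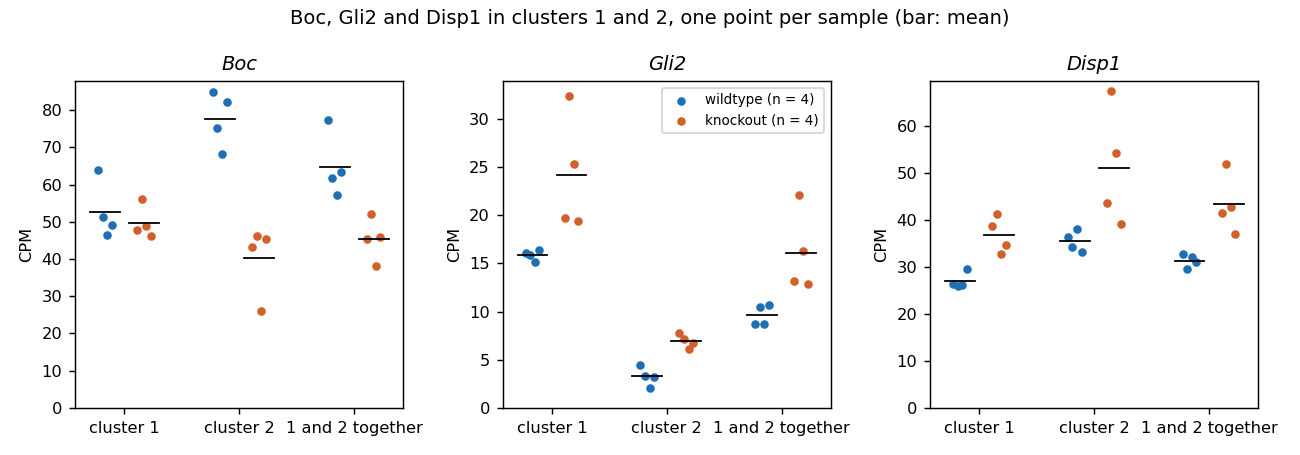
Levels of Boc, Gli2 and Disp1 (CPM, axes from 0) in clusters 1 and 2 apart and together, 1 point per sample and a bar at the mean of wildtype (blue, n = 4) or knockout (orange, n = 4). Boc separates the groups in cluster 2 and overlaps in cluster 1, and Gli2 and Disp1 are higher in every knockout sample than in every wildtype sample of both clusters.

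Of the wider list, 3 genes rose in cluster 1 and none fell, among 48 tested, beside 4.84% called of all genes tested there (median log2 fold change -0.02 against -0.00049 for all genes). Disp3, a relative of Disp1, rose by 0.45 ± 0.09 (adjusted p = 0.0121, and 0.0581 without knockout 3), the coreceptor Gas1 from 9.94 ± 3.56 to 16.1 ± 2.47 CPM (adjusted p = 0.0399) and Bcl2 from 24.7 ± 1.38 to 38.9 ± 9.28 CPM (adjusted p = 0.0113). The Gas1 call was lost without any 1 sample other than wildtype 1 (highest adjusted p = 0.134), with sex as a covariate (0.0544) and with clusters 1 and 2 combined (0.0829). The Bcl2 call was lost without knockout 2 (0.0502).

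In cluster 2, 4 of 48 rose and 2 fell, beside 9.11% called of all genes tested (median -0.04 against 0.0044 for all genes). Disp3 was 21.9, 18.1, 18.9 and 17.3 CPM in wildtype and 36.5, 42.2, 33.1 and 22.7 CPM in knockout (0.82 ± 0.17, adjusted p = 0.00643). Bcl2 (0.61 ± 0.14, 0.0119), Cdon (0.37 ± 0.08, 0.00827) and Spop, which marks Gli proteins for degradation (0.33 ± 0.07, 0.00665), rose too. Scube1, of a family that helps to release the ligand, fell from 97.4 ± 18.6 to 68.0 ± 6.56 CPM (adjusted p = 0.0192) and Mycn, a growth-promoting target, from 49.3 ± 2.42 to 38.6 ± 5.40 CPM (0.0415). Scube1 was no longer called without wildtype 1, wildtype 4 or knockout 1 (highest adjusted p = 0.0666) and Mycn without any 1 sample other than knockout 4 (highest 0.133). Keeping only nuclei with low doublet scores ended both calls (0.0620 for Scube1 and 0.160 for Mycn), and DESeq2 did not call Mycn (0.0601). With clusters 1 and 2 combined, Cdon, Spop, Scube1 and Mycn were not called (0.0789, 0.0503, 0.115 and 0.130).

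Bcl2 was also the 1 list gene called in cluster 3, where 3.36% of all genes tested were called, and it rose from 314 ± 6.87 to 385 ± 38.3 CPM (0.32 ± 0.07, adjusted p = 0.0279, lost without any 1 sample other than knockout 1 or 4, highest 0.103). It was thus called lower in the progenitor-like cluster 4 and higher in the neuron-like clusters 1 to 3. Whether these changes differ was not tested. Cdon was the 1 called in cluster 5, beside 1.77% of all genes tested (0.43 ± 0.09, adjusted p = 0.0315, lost without any 1 of wildtype 2 to 4 or knockout 1, 2 or 4, highest 0.0938). None was called in clusters 6 and 7 by edgeR or DESeq2, with 7 and 5 at an unadjusted p under 0.05.

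Over all nuclei, 55 of the list were tested and 2 were called, beside 5.26% of all genes tested (median log2 fold change -0.03 against 0.0010 for all genes). With the replicate block 5 were called, where the genes called of all 13927 tested rose from 732 to 1344. Cdon rose from 161 ± 25.2 to 232 ± 38.1 CPM (0.53 ± 0.12, adjusted p = 0.0289), a call that 6 of the 8 single omissions ended: those of wildtype 2, 3 or 4 and knockout 1, 2 or 3 (highest adjusted p = 0.0932). Olig2 fell from 2.20 ± 0.774 to 0.716 ± 0.121 CPM (-1.62 ± 0.25, adjusted p = 0.00748), from 219 and 69 UMIs.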

How the data were processed

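The values are UMI counts per gene and nucleus of 4 wildtype and 4 knockout samples, whole numbers as deposited by the authors, made with 10x Genomics 3′ chemistry (version 2) as the labels' protocols state. The submitters' processing notes name kallisto, bustools and mm10, with versions not given in the sources used here. The authors' deposited tables also give a cluster, a doublet score (a score with no fixed unit, at most 0.499954 here, so no doublet caller was run) and, nucleus by nucleus, an angle along the cell cycle. Deposited UMI totals exceeded the sums of the counts by 0.65 to 0.96%. All deposited nuclei were kept.

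Within each sample, UMIs were added up over all nuclei, within each cluster and within 3 angle ranges of cluster 4 (G1/G0 from 1.75 pi to 0.5 pi through 0, S to 1 pi, G2/M to 1.75 pi). Genotypes were compared in edgeR 4.0.16 under R 4.3.3 (TMM, filterByExpr, glmQLFit, glmQLFTest, genotype only), adjusted by Benjamini-Hochberg over all genes tested. DESeq2 1.42.0 was an alternative. CPM were computed from total UMIs. The interaction with cluster was 1 edgeR fit over all sums. The fits were tested on simulated data. UMI totals limit precision to counting error, and intervals of fold changes come from the fit.

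Clusters were named after the marker list with the most genes, at least 3, that reached 10 CPM and stood 1.5 times above the median of the other clusters. The 6 genes were named throughout, and of the wider Hedgehog list up to 5 called genes in each direction. The 6 genes and all lists were chosen with earlier results of these data known. Same-numbered samples share their number in the labels only, and their deviations from the group means correlated at 0.397, 0.185, 0.192 and 0.179, each over the 0.1 set for treating numbers as pairs. Some unlike numbers were over 0.1 too: wildtype 3 with knockout 4 (0.286), wildtype 2 with knockout 3 (0.167) and wildtype 1 with knockout 2 (0.112). Pairing is thus uncertain, and the main fits used genotype only, with the block as an alternative. Alternatives were other size factors, DESeq2, no filter, a replicate block, sex (called from Xist UMIs in each sample), low doublet scores and leaving out each sample. No protein sequence was used here, and the gene positions of the deposited table, whose build is not named, were not used.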

Additional observations from a re-analysis of the deposited data

Results flagged for a closer look

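Among 132 groups of 4 samples (6 genes, 11 sets of nuclei, 2 genotypes), 6 held a sample whose gap to its nearest neighbour, as a share of the group's range, was over Dixon's 95% critical value for 4 samples. That is 4.55% of the groups, and chance gives about 1 in 20. Gli3 in cluster 4 was 1779 CPM in wildtype 2 against 1564 to 1586 CPM in the other wildtype samples. Gli3 in cluster 6 was 54.4 CPM in knockout 1 against 12.2 to 16.2 CPM in the others. Gli2 in cluster 3 was 2.19 CPM in knockout 3 against 4.84 to 5.39 CPM. Ptch1 over all nuclei was 26.8 CPM in knockout 1 against 22.2 to 23.0 CPM. Disp1 in cluster 1 was 29.5 CPM in wildtype 4 against 25.9 to 26.4 CPM. Boc in cluster 2 was 25.9 CPM in knockout 3 against 43.4 to 46.1 CPM, and its log2 fold change stayed between -1.04 and -0.78 with each sample left out.

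The knockout change differed from that in cluster 4 for 5 pairs of gene and cluster by the edgeR interaction test. These were Gli2 in cluster 1 (0.70 on the log2 scale, adjusted p = 0.0043), Gli2 in cluster 2 (1.05, 0.00692), Ptch1 in cluster 2 (1.02, 3.36e-05), Ptch1 in cluster 3 (0.97, 0.000199) and Boc in cluster 2 (-1.03, 6.49e-06). The 8 samples enter every cluster, and sums of 1 sample are not independent.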

How the results depend on the processing

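Of 11 called combinations of member and set of nuclei, none reversed in 160 refits. The 18 refits that lost a call all left out 1 sample, and their log2 fold changes over such refits were -0.63 to -0.42 for Ptch1 and 0.29 to 0.37 for Disp1 over all nuclei. They were 0.48 to 0.79 for Gli2 and 0.40 to 0.54 for Disp1 in cluster 1, and 0.37 to 0.67 for Disp1 in cluster 2. For the 5 called differences from cluster 4, the exact permutation over samples, which adjusts to 0.147 at best here, gave 0.63 and 1.08 for Gli2 in clusters 1 and 2, 1.04 and 1.00 for Ptch1 in clusters 2 and 3 and -1.02 for Boc in cluster 2. Gli2 in cluster 1 ranged from 0.56 to 0.80 with single samples left out. The 4 cell cycle differences kept their side of the threshold in 36 of 36 alternatives. Most of these left out 1 sample. All 8 samples lay on the same side in each of the 4, so such omissions could not end a call and lend no support. The remaining alternative was a narrower G1/G0 range. With TMM factors across sums, 11 of 12 pairs of gene and genotype kept their highest cluster.

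Counts of genes called moved most. Over all nuclei 732 became 1215 with DESeq2, 1344 with the replicate block and 263 to 994 with single samples left out. The replicate block, which treats same-numbered samples as pairs, gave 652 for 400 in cluster 3, 253 for 82 in cluster 6 and 255 for 109 in cluster 7. Low doublet scores gave 53 in cluster 6 and 71 in cluster 7. Single omissions gave 335 to 647 in cluster 1 (564 with all samples), 192 to 438 in cluster 3, 316 to 534 in cluster 4 (512), 101 to 189 in cluster 5 (188), 51 to 148 in cluster 6 and 63 to 142 in cluster 7. In the ranges of cluster 4 they gave 103 to 237 in G1/G0 (208), 163 to 350 in S (304) and 181 to 278 in G2/M (289). Clusters 1 and 2 together had 915. Members called ranged from 0 to 3 over all nuclei (2) and 3 to 8 over the clusters (6). Calls of the wider list were 6 with DESeq2, 5 with the block and 1 to 5 with single omissions over all nuclei (2), 10 to 16 over the clusters (17), and 3 with the block and 2 to 6 over the ranges (7). Fewer samples were fitted in each omission, and the causes of the other shifts were not tested. Beside the calls named in the report, the block changed no other call of a member.

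Gli2 in clusters 2 and 3 and Hhip, Lrp2 and Olig2 in cluster 4 rest on few UMIs. Leaving out 1 sample of a group leaves no exact test of shares that can reach 0.05, so only differences of shares were recomputed.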

Other observations

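The thinned shares of nuclei with a UMI gave 7 of 42 pairs of gene and cluster at the smallest exact two-sided permutation p that 4 against 4 samples allow, 0.0286, and none passed after adjustment (adjusted p = 0.171). Thinned shares were computed for the 6 genes only. Without the share of all genes that reach this p, the count is not a trait of the 6. Besides Ptch1 in cluster 4 and Boc in cluster 2 these were Disp1 in clusters 1 (3.72% ± 0.119 in wildtype and 4.52% ± 0.473 in knockout), 2 (5.15% ± 0.217 and 7.24% ± 1.48) and 5 (3.22% ± 0.324 and 4.94% ± 0.817), Ptch1 in cluster 1 (2.61% ± 0.391 and 1.71% ± 0.283) and Gli3 in cluster 7 (2.01% ± 0.441 and 3.34% ± 0.689). The share of nuclei in cluster 6 was 10.5% ± 1.54 in wildtype and 5.85% ± 1.62 in knockout (exact p = 0.0286, adjusted p = 0.2). Boc levels in that cluster were 98.0 ± 8.73 and 97.9 ± 19.1 CPM, from 1110 and 609 Boc UMIs in 3524 and 1955 nuclei.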
